A study of Mus musculus with 12 samples.

Results

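Remnant lens cells (LCs) of adult mice were compared between 2 genotypes over the first 24 hours after cataract surgery, and the question here was which genes changed by a different amount in the absence of β8 integrin. The measure was the genotype by time interaction of each gene, defined as its change from 0 h to 24 h post cataract surgery (PCS) in β8ITG-cKO LCs minus its change in WT LCs, both on the log2(FPKM + 1) scale. FPKM are fragments per kilobase of transcript, scaled to the size of the library, so that levels of genes of different length can be compared. A positive interaction means that a gene rose more, or fell less, in β8ITG-cKO LCs, and it equals the genotype difference at 24 h minus the genotype difference at 0 h. Tests covered the 15262 of 45859 listed genes whose mean over 12 libraries reached 0.5 FPKM. The 2 tested genes nearest to this limit, Ccrl2 and LOC108167946, had means of 0.5004 and 0.5006 FPKM, and the nearest genes left out, Pnmal1 and Tbx22, had 0.4995 and 0.4994 FPKM.

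The 12 libraries fell into 4 groups of 3, each library pooling 5 lens capsules with their attached cells from mice aged 2 months. The WT 0 h and WT 24 h groups were C57BL/6 mice, and the β8ITG-cKO 0 h and β8ITG-cKO 24 h groups were homozygous for a floxed Itgb8 exon 4 and carried MLR10-Cre, a transgene whose recombinase is active throughout the lens since early eye development, in a mixed C57BL/6 and 129S1/Sv strain background. Lens fiber cells had been removed from every eye through an incision in the cornea, so 0 h samples were also operated, and genotype and strain background cannot be told apart. The labels do not say whether libraries of a group came from separate litters or days, so p-values measure the spread between these samples. Summed FPKM ran from 446531 in WT 0 h replicate 3 to 740140 in β8ITG-cKO 0 h replicate 1, and the 10 highest genes held 36.0% to 49.6% of the sum. Read totals were not used here, but the steps between the lowest FPKM gave relative depths of 0.86 to 1.08.

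Integrins are cell surface receptors made of an α and a β chain, and αVβ8 integrin binds latent TGF-β and can release the active cytokine. After fiber cells are removed, the LCs left on the capsule start an injury response with chemokines, acute-phase proteins and immediate early transcription factors, and later change toward myofibroblasts that lay down matrix. Immediate early genes are those that cells switch on within minutes of a stimulus without new protein synthesis, and the circadian clock is a loop of activators and repressors that cycles daily in nearly every cell.

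Itgb8, on chromosome 12, is the deleted gene, but its FPKM cover all exons and therefore check nothing about exon 4. It had 7.26, 10.8 and 8.42 FPKM in WT 0 h, 9.08, 8.38 and 9.58 FPKM in WT 24 h, 6.83, 4.58 and 7.31 FPKM in β8ITG-cKO 0 h, and 9.28, 11.8 and 10.3 FPKM in β8ITG-cKO 24 h libraries. It rose by 0.68 on the log2 scale in β8ITG-cKO LCs (adjusted p = 0.00908), where the 24 h libraries lay above the 0 h libraries, and no change was called in WT LCs. The genotypes overlapped at each time, and the interaction of 0.64 (95% interval 0.10 to 1.17, adjusted p = 0.131) did not pass the test. Of the crystallin genes, which mark lens, Cryba2 was abundant in all groups, at 4395, 1250, 4728 and 823.98 FPKM on average in the 4 groups, while Crygf had 16.43, 0.05, 10.15 and 0.64 FPKM.

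Of the 15262 genes, 1433 had an interaction called by limma-trend at a Benjamini-Hochberg threshold of 0.05 (9.39% of the genes tested), 1043 of them higher (6.83%) and 390 lower (2.56%) in β8ITG-cKO LCs. At an unadjusted p of at most 0.05 there were 3695 genes, and 947 of the called genes had an interaction of at least 1 in size, 795 higher and 152 lower. Predicted genes, clones, pseudogenes and small RNAs made up 89 of the higher and 50 of the lower calls and are not named except where stated. The median interaction over all genes was 0.005, while the median absolute interaction was 0.307, with a median standard error of 0.25. Across genes, the WT and β8ITG-cKO changes, which share no library, had a Pearson r of 0.583, given as a description because genes are not independent replicates. The count of calls depended on single libraries. It was 688 without β8ITG-cKO 0 h replicate 2, 754 without β8ITG-cKO 0 h replicate 3, 805, 902 and 929 without β8ITG-cKO 24 h replicates 2, 1 and 3, and 931 without WT 0 h replicate 1, and it reached 1921 without WT 24 h replicate 3, where lower calls were 772. Rescaling all libraries to the same median gave 1097 higher and 649 lower calls, and quantile normalization 856 higher and 513 lower. No gene called both with all libraries and with 1 left out changed sign, but such fits share most libraries, so a change of sign was hardly possible.

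**Figure D1:**
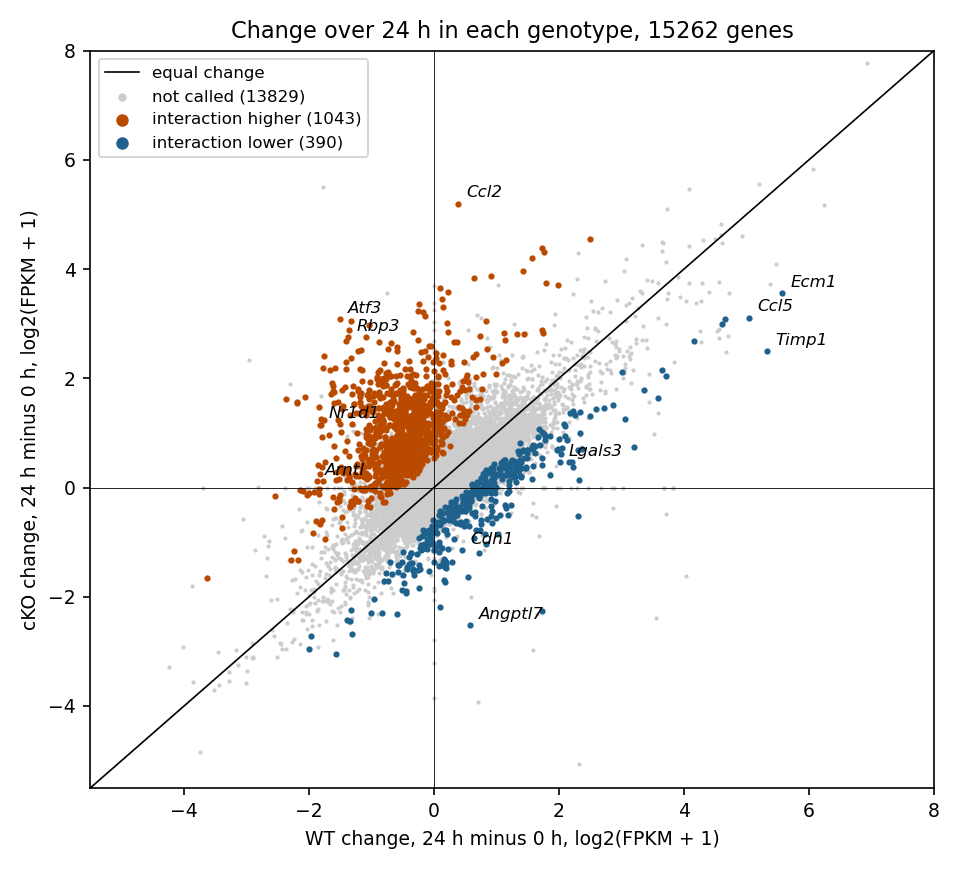
Each point is 1 of 15262 genes, placed by its mean change from 0 h to 24 h in WT (x axis) and in β8ITG-cKO (y axis) on the log2(FPKM + 1) scale, with 6 genes beyond the axes. Orange points above the line of equal change are the 1043 genes with a higher interaction and blue points below it the 390 with a lower one.

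The same fit gave the change within each genotype and the difference at each time, which are used here only to describe where an interaction lay, since they come from the same libraries. In WT LCs 28.1% of genes rose and 12.9% fell from 0 h to 24 h, and in β8ITG-cKO LCs 29.9% rose and 9.24% fell. These shares depend on the scaling: the median change over all genes was 0.15 in WT and 0.22 in β8ITG-cKO LCs, and -0.05 and 0 after rescaling to the same median. At 0 h, 3.07% of genes were called higher and 2.3% lower in β8ITG-cKO than in WT LCs, and at 24 h 8.02% were higher and 2.06% lower. Among the 1043 genes with a higher interaction, 571 rose in β8ITG-cKO LCs with no call in WT LCs, 236 fell in WT LCs with no call in β8ITG-cKO LCs, and 178 fell in WT and rose in β8ITG-cKO LCs. Their genotype difference was larger in size at 24 h in 825 and at 0 h in 218. The 390 genes with a lower interaction had the opposite balance, with the larger difference at 24 h in 123 and at 0 h in 267. Of these, 143 rose in WT LCs with no call in β8ITG-cKO LCs, 82 rose in both, 109 fell in β8ITG-cKO LCs alone, and 27 rose in WT and fell in β8ITG-cKO LCs. Of 4292 genes that rose in WT LCs, 252 had a lower interaction and 34 a higher one, and 4048 had a positive change in β8ITG-cKO LCs too. The median change of those 4292 genes was 0.79 in WT and 0.55 in β8ITG-cKO LCs, but they were chosen for their WT change, so a smaller value in the other genotype would be seen without any difference.

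**Figure D2:**
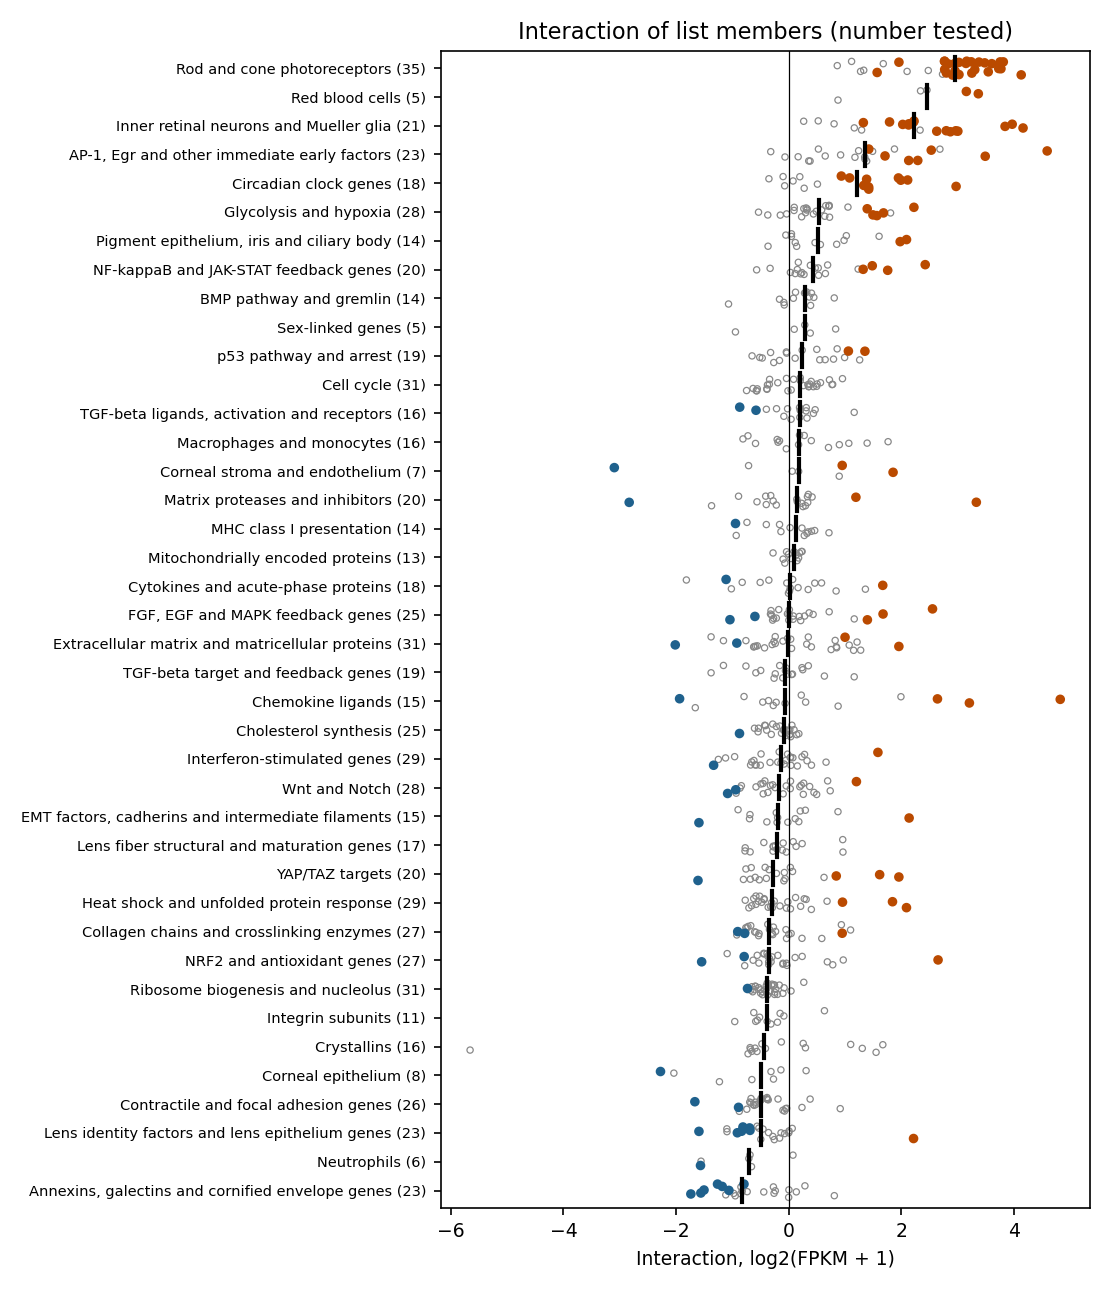
Each point is the interaction of 1 gene on the log2(FPKM + 1) scale (x axis), for every list with at least 5 tested members (y axis, number tested in parentheses), and each black bar is the list's median. Filled orange and blue points are genes called higher and lower, open points were not called, and the open crystallin point at -5.66 is Cryaa, which is listed at 0 in 1 library.

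Several chemokine, AP-1 and stress-induced genes had high interactions. Those described here were abundant in WT LCs already at 0 h, low or near 0 in β8ITG-cKO LCs at 0 h, and mostly close to WT at 24 h, so that the interaction lay in the 0 h samples. Ccl2, on chromosome 11 from 82035577 to 82037452, encodes a chemokine that draws monocytes and had the largest positive interaction of the genes named by size. Its values were 309.7, 189.5 and 104.97 FPKM in WT 0 h, 204.8, 280.8 and 235.6 FPKM in WT 24 h, 3.18, 6.87 and 3.73 FPKM in β8ITG-cKO 0 h and 183.1, 177.1 and 235.6 FPKM in β8ITG-cKO 24 h libraries. Only the β8ITG-cKO 0 h libraries stood apart from the rest, and the interaction was 4.83 (standard error 0.48, adjusted p = 0.00144). The genotype difference was -5.10 at 0 h and -0.27 at 24 h. Of 15 chemokine genes tested, 3 were called higher (Ccl2, Ccl7 and Cxcl10) and 1 lower (Ccl5), where 6.83% and 2.56% of all genes were, and the list's median was -0.06 against 0.005 for all genes. Ccl7, a neighbour of Ccl2 on chromosome 11 with a related role, had 0.126, 0.259 and 0.285 FPKM in β8ITG-cKO 0 h and 22.9, 17.1 and 3.77 FPKM in WT 0 h libraries, with an interaction of 3.21. Cxcl10, an interferon-induced chemokine for T cells, had 8.28, 8.14 and 2.29 FPKM in WT 0 h and was at or under 0.0841 FPKM in β8ITG-cKO 0 h libraries. Unlike Ccl2 and Ccl7 it then fell in WT LCs, by 1.69 on the log2 scale, and its interaction was 2.64.

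Of 23 AP-1, Egr and immediate early genes tested, 7 had a higher interaction and none a lower one, with a median of 1.36. The 7 were Atf3, Fos, Junb, Jun, Maff, Fosl1 and Jund, where 6.83% of all genes were called higher. Atf3, on chromosome 1, encodes a stress-induced transcription factor that pairs with AP-1 proteins. It had 46.7, 28.6 and 8.99 FPKM in WT 0 h and 0.385, 0.123 and 0.173 FPKM in β8ITG-cKO 0 h libraries, and 3.58, 11.1 and 10.1 against 11.5, 8.64 and 8.31 FPKM at 24 h. It fell in WT and rose in β8ITG-cKO LCs, an interaction of 4.59 (standard error 0.69, adjusted p = 0.00537). The WT 0 h libraries differed among themselves, with replicate 3 lowest, and the same library was the lowest of its group for Ccl2, Fos, Jun and Junb. Fos, the partner of Jun in the AP-1 dimer, was at 83.6, 29.6 and 14.02 FPKM in WT 0 h and 1.08, 1.09 and 1.37 FPKM in β8ITG-cKO 0 h libraries, with an interaction of 3.49. Jund was the most even, with 81.4, 75.8 and 67.9 FPKM in WT 0 h and 29.5, 27.9 and 27.8 FPKM in β8ITG-cKO 0 h libraries and an interaction of 1.42 (standard error 0.20, adjusted p = 0.00465). Between 5 and 10 of the 23 genes were called higher when 1 library was omitted, 5 where this was β8ITG-cKO 0 h replicate 3 or β8ITG-cKO 24 h replicate 2 and 10 where it was WT 0 h replicate 3.

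Some feedback inhibitors of growth factor signalling were also low in β8ITG-cKO LCs at 0 h. Of 25 FGF, EGF and MAPK feedback genes, 3 were called higher (Dusp5, Dusp4 and Btc) and 2 lower (Spry1 and Erbb2), beside 6.83% and 2.56% of all genes. Dusp5, a nuclear phosphatase that switches off ERK, had 1.63, 1.99 and 1.29 FPKM in β8ITG-cKO 0 h libraries against 38.2, 14.5 and 20.6 FPKM in WT 0 h, and 57.8, 40.99 and 57.4 against 69.5, 118.5 and 60.4 FPKM at 24 h. It rose in both genotypes, by 4.32 and 1.77 on the log2 scale, and its interaction was 2.56 (adjusted p = 0.00798). Spry1, an inhibitor of receptor tyrosine kinase signalling, had the opposite sign, with 13.2, 14.8 and 13.2 FPKM in WT 24 h and 9.37, 7.44 and 6.26 FPKM in β8ITG-cKO 24 h libraries and an interaction of -1.04 (adjusted p = 0.0119). It rose in WT LCs alone, and its genotype difference was 0.27 at 0 h, not called, and -0.78 at 24 h. Among 20 NF-κB and JAK-STAT feedback genes, 4 were called higher (Tnfaip3, Nfkbia, Relb and Nfkbie) and none lower, with a median of 0.43, while 6.83% of all genes were called higher. The 4 calls became 1 without β8ITG-cKO 0 h replicate 2 or 3 or without β8ITG-cKO 24 h replicate 2, and 2 without WT 0 h replicate 1, WT 24 h replicate 1 or β8ITG-cKO 24 h replicate 3. Nfkbia, which encodes the inhibitor that holds NF-κB in the cytoplasm, had 70.96, 48.6 and 28.6 FPKM in WT 0 h and 11.4, 7.72 and 8.99 FPKM in β8ITG-cKO 0 h libraries. Its adjusted p of 0.0362 rose to as much as 0.0891 with 1 library left out. Mt2, a metal-binding stress protein, had 48.8, 24.8 and 38.8 FPKM in WT 0 h and 0.951, 2.26 and 2.30 FPKM in β8ITG-cKO 0 h libraries, an interaction of 2.65, and at 24 h it was again below WT, by 1.10. The secreted protease gene Adamts1, the matricellular gene Cyr61 and the chaperone gene Hspa1a had interactions of 3.33, 1.96 and 2.09. Hspa1a and Hspa1b (1.85) are near-identical copies, so reads may have been shared between them. Of 18 acute-phase and cytokine genes tested, 1 was higher (Csf2, 1.67), and 1 lower (Slpi, -1.11), with a list median of 0.02.

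Red blood cell markers moved with this group. Summed FPKM of 7 such genes were 152.6, 73.7 and 68 in WT 0 h, 36, 219.7 and 170.2 in WT 24 h, 15.8, 6.5 and 11.7 in β8ITG-cKO 0 h, and 195.1, 174.5 and 87.4 in β8ITG-cKO 24 h libraries. The β8ITG-cKO 0 h libraries were again the only group below all others. Of 5 genes tested, Hba-a1, the most abundant, and its near-identical copy Hba-a2 were called higher (interactions 3.37 and 3.16), where 6.83% of all genes were. The β-globin genes and Alas2 were not called. All 5 had a positive interaction and an unadjusted p of at most 0.05 by limma-trend, with a median of 2.46. Neither Hba-a1 nor Hba-a2 was called without WT 0 h replicate 1, β8ITG-cKO 0 h replicate 2 or 3 or β8ITG-cKO 24 h replicate 1 or 2, where the adjusted p reached 0.0687 and 0.0743. The part of red blood cells in the results on chemokine and AP-1 genes was not tested. No member of the 7 was at 0 in all libraries.

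**Figure D3:**
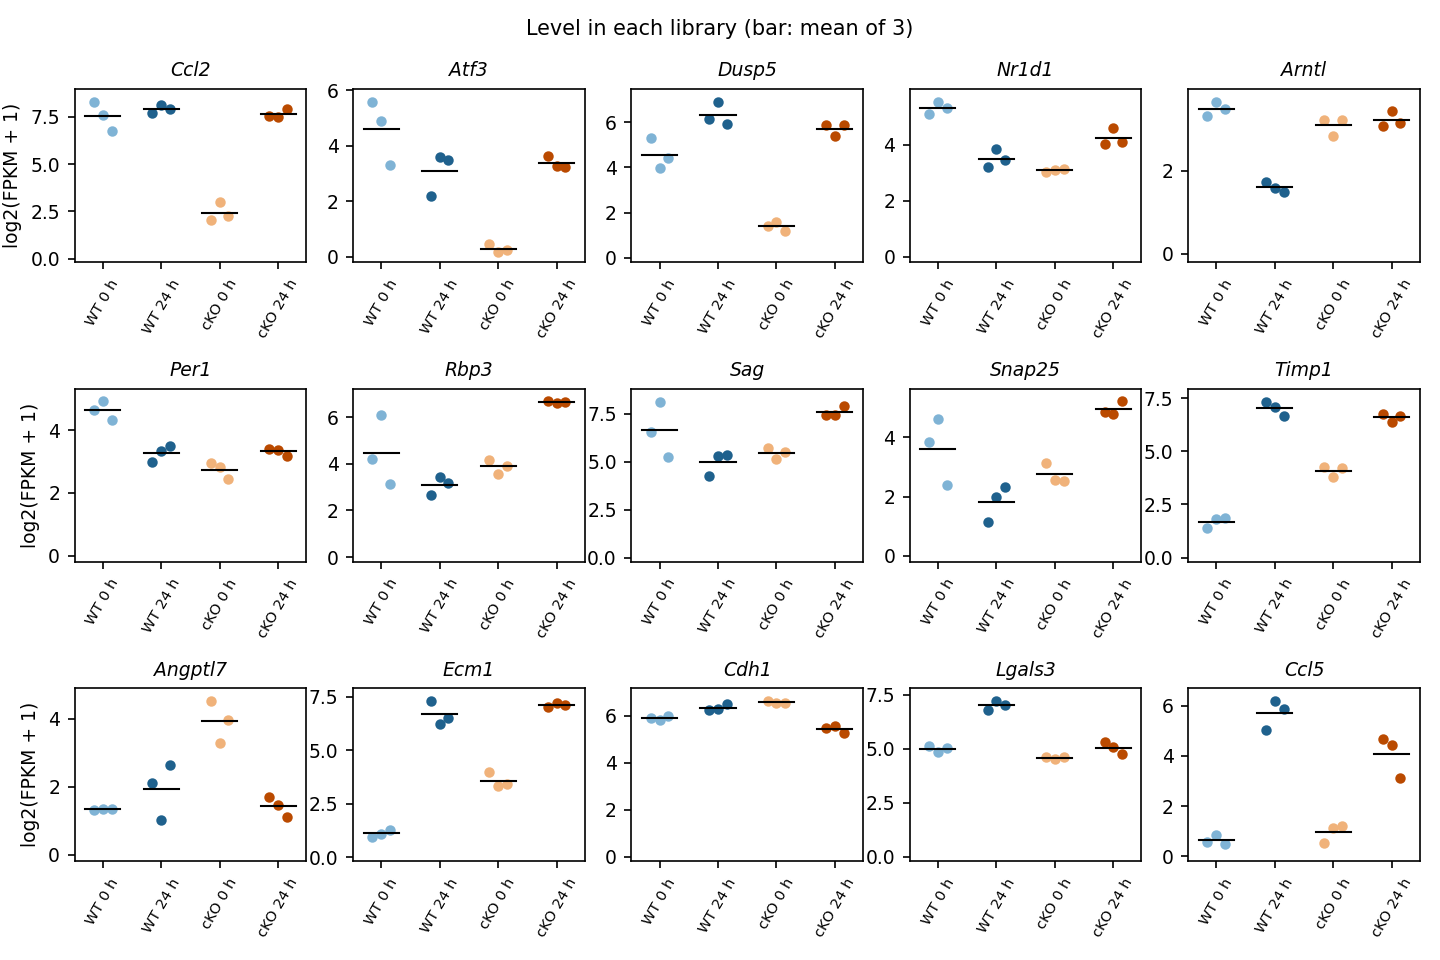
Level of 15 genes in each library on the log2(FPKM + 1) scale (y axis) by group (x axis), with 1 point a library and a bar at the mean of 3. In the top row the β8ITG-cKO 0 h libraries lie low for Ccl2, Atf3 and Dusp5, and the WT 24 h libraries lie low for Arntl.

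Clock genes formed a further group, and both the WT change and the 0 h baseline had a part in it. A fall was called for 14 genes in WT LCs, while 5 rose and 4 fell in β8ITG-cKO LCs. Between genotypes 9 genes were called at 0 h, each with WT above β8ITG-cKO, with a list median of -0.58. At 24 h 3 were called, each with β8ITG-cKO above WT, and the list median was 0.17. Of 18 genes tested, 11 had a higher interaction, against 6.83% of all genes, and none a lower one, with a median of 1.21, a median change of -0.86 in WT LCs and of 0.28 in β8ITG-cKO LCs. Nr1d1 encodes REV-ERBα, the clock repressor that shuts off Arntl. It had 33.6, 45.2 and 38.7 FPKM in WT 0 h, 8.16, 13.3 and 9.92 FPKM in WT 24 h, 7.10, 7.50 and 7.86 FPKM in β8ITG-cKO 0 h and 15.5, 22.96 and 15.9 FPKM in β8ITG-cKO 24 h libraries. Nr1d1 fell in WT LCs and rose in β8ITG-cKO LCs, and no group overlapped WT 0 h. The interaction of 2.98 (standard error 0.26, adjusted p = 0.0009) kept its call with any 1 library left out, the highest adjusted p being 0.00597. Arntl, which encodes the activator BMAL1, was at 8.92, 11.6 and 10.1 FPKM in WT 0 h, 8.27, 6.15 and 8.35 FPKM in β8ITG-cKO 0 h, 7.33, 9.70 and 7.81 FPKM in β8ITG-cKO 24 h and only 2.30, 2.001 and 1.80 FPKM in WT 24 h libraries. Its interaction was 1.99 (adjusted p = 0.00155), and here the 24 h samples carried it, with a genotype difference of 1.61 at 24 h and -0.39 at 0 h. Per1, a repressor of BMAL1 with CLOCK, had 24.4, 29.4 and 19.2 FPKM in WT 0 h and 6.82, 6.10 and 4.39 FPKM in β8ITG-cKO 0 h libraries, an interaction of 1.95. Bhlhe40, also a repressor, rose in β8ITG-cKO LCs alone (interaction 1.40). Clock itself, the partner of BMAL1, lay between 6.78 and 10.3 FPKM in all 12 libraries. It fell in WT LCs by 0.31 (adjusted p = 0.0391), with no call in β8ITG-cKO LCs, and its interaction was not called (0.20, 95% interval -0.14 to 0.54). With 1 library left out, between 9 and 11 of the 18 were called. The count was 9 without WT 0 h replicate 2, β8ITG-cKO 0 h replicate 2 or β8ITG-cKO 24 h replicate 2 or 3. The sources used here do not give the hour of day at which any group was operated or collected. A difference in that hour cannot be told apart from a difference between groups, and its part in the clock results was not tested.

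BMAL1 and CLOCK bind the E-box CACGTG, and the Per1 promoter shows one. The bases before the Per1 start are given here from the RefSeq promoters on GRCm38.p6, chr11:69098699-69098948, + strand, 5′ to 3′, with the E-box in capitals.
Per1: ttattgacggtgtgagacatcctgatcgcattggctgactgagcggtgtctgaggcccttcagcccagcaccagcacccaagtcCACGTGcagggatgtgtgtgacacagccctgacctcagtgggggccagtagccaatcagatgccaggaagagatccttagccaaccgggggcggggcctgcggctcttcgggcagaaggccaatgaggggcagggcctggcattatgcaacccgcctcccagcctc
The letters CACGTG, which read the same on both strands, lay in 6 of 20 promoters (30.0%) of the 15 clock genes found in that table, and in 8.0% of 13536 promoters of tested genes and 6.0% of all 32841. The members with a match were Bhlhe41, Ciart, Cry1, Per1 and Tef, of which Bhlhe41, Ciart and Per1 had a higher interaction. The AP-1 letters TGANTCA lay in 0 of 24 promoters of 18 AP-1, Egr and immediate early genes (4.5% of promoters of tested genes). TGACGTCA lay in 2 of them, those of Dusp1 and Maff (8.3%, against 2.5%). These matches describe 250 bases before each start and are not binding sites.

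Genes of the retina gave the largest share of called members among the 43 lists, and their interaction lay mostly in the 24 h samples. Of 35 rod and cone photoreceptor genes, all tested, 27 had a higher interaction (6.83% of all genes did) and none a lower one, with a median of 2.96. Their median genotype difference was -0.45 at 0 h and 2.53 at 24 h. Among 21 inner retinal neuron and Müller glia genes tested, 15 of them called, the median was 2.22. In these bulk libraries more cells of a type and more RNA per cell cannot be told apart. Lens cells do not normally make phototransduction proteins, and no source used here says that retinal tissue was collected.

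The summed level of the 35 photoreceptor genes was 627.4, 1992.6 and 279 FPKM in WT 0 h, 211.9, 336.1 and 341.7 FPKM in WT 24 h, 623.3, 350.7 and 493 FPKM in β8ITG-cKO 0 h, and 1750.9, 1538 and 1795.1 FPKM in β8ITG-cKO 24 h libraries. The β8ITG-cKO 24 h libraries were high and alike, and WT 0 h replicate 2 was above all of them. No member was at 0 in every library. Rbp3, a retinoid carrier between photoreceptors and pigment epithelium, had 17.2, 66.8 and 7.76 FPKM in WT 0 h, 5.39, 9.65 and 8.10 FPKM in WT 24 h, 17.1, 10.8 and 14.1 FPKM in β8ITG-cKO 0 h, and 100.5, 95.9 and 99.9 FPKM in β8ITG-cKO 24 h libraries. The β8ITG-cKO 24 h libraries lay above all others, the next being WT 0 h replicate 2. Its interaction was 4.13 (standard error 0.76, adjusted p = 0.00925). Sag encodes rod arrestin, which ends the light response, and had an interaction of 3.81 (adjusted p = 0.0138). Crx, the transcription factor that drives photoreceptor genes, was at 29.6, 33.1 and 34.97 FPKM in β8ITG-cKO 24 h and 2.11, 2.05 and 2.95 FPKM in WT 24 h libraries, with an interaction of 3.77 (adjusted p = 0.00815).

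The count of photoreceptor genes called depended on single libraries and ran from 11 to 31 with 1 left out. It was 11 without β8ITG-cKO 0 h replicate 2 and 14 without replicate 3 of that group, 14, 17 and 15 without β8ITG-cKO 24 h replicates 1, 2 and 3, and 15 without WT 24 h replicate 1. It was 26 of 34 tested without WT 0 h replicate 2, the library with the highest sum. The median moved less, from 2.33 to 3.58 over the 12 omissions. The 15 calls among inner retina genes ran from 10 to 16.

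Neuronal genes outside the photoreceptor list filled much of the top 10. Snap25 and Syt1, parts of the machinery that releases synaptic vesicles, had interactions of 3.97 and 3.84. Chga and Chgb, granins of secretory granules, had 4.25 and 4.10, the synuclein gene Sncb had 4.02, and Pcp2, found in retinal bipolar cells, had 4.16. Snap25 was at 27.8, 26.3 and 35.9 FPKM in β8ITG-cKO 24 h, 1.22, 2.98 and 4.05 FPKM in WT 24 h, 13.2, 23.2 and 4.21 FPKM in WT 0 h and 7.83, 4.95 and 4.74 FPKM in β8ITG-cKO 0 h libraries. In all 6, WT 0 h replicate 2 was the highest WT library. Dkk3, the most abundant gene of the inner retina list, had 576.6, 699.5 and 585.2 FPKM in WT 0 h libraries, fell in both genotypes and was not called (interaction 0.27), so the summed level of that list follows Dkk3 and not the called genes.

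**Figure D4:**
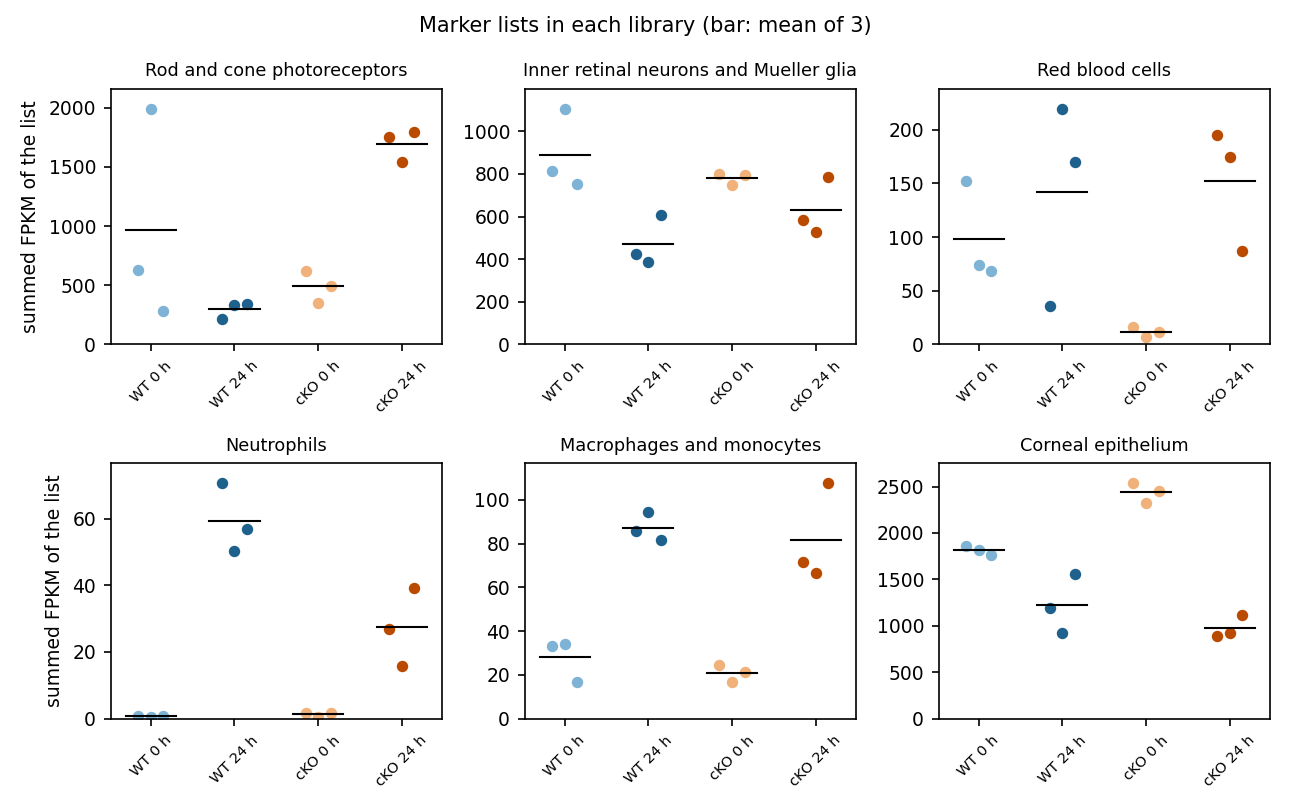
Summed FPKM (y axis) of 6 marker lists in each library by group (x axis), with 1 point a library and a bar at the mean of 3. Photoreceptor genes are high in the 3 β8ITG-cKO 24 h libraries and in 1 WT 0 h library, red blood cell genes are low in β8ITG-cKO 0 h, and neutrophil genes are near 0 at 0 h and higher in WT than in β8ITG-cKO at 24 h.

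Promoters of 3 photoreceptor genes with high interactions show the core letters bound by CRX and related factors, TAATCC, whose reverse complement is GGATTA. The bases before each start are from the RefSeq promoters on GRCm38.p6, 5′ to 3′ on the gene's strand, with GGATTA in capitals. Rbp3 is at chr14:33953753-33954002 (+ strand), Sag at chr1:87803430-87803679 (+ strand) and Crx at chr7:15879956-15880205 (- strand).
Rbp3: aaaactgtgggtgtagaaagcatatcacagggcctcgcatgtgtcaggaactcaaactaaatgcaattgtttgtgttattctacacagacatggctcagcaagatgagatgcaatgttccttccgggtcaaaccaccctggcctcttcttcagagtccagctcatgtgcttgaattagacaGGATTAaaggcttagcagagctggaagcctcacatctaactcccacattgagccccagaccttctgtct
Sag: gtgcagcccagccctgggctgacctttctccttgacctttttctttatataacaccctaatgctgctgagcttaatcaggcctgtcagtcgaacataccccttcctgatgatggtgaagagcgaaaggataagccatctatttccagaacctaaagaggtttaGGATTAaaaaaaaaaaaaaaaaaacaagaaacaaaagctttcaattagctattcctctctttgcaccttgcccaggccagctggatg
Crx: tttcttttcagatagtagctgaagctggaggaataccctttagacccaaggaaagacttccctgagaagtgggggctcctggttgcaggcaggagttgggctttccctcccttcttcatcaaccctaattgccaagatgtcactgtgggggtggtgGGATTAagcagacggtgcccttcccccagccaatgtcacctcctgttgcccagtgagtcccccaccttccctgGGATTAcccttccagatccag
In Rbp3 the letters lay 69 to 64 bases before the start, in Sag 87 to 82, and in Crx 94 to 89 and again 21 to 16 bases before it. TAATCC on either strand was in 10 of 24 promoters of photoreceptor genes found in the table (41.7%) and in 4 of 20 of inner retina genes, against 5.3% of 13536 promoters of tested genes and 6.3% of all. Of the 10, Abca4, Aipl1, Cnga1, Crx, Gngt1, Guca1a, Rbp3 and Sag had a higher interaction and Cngb1 and Gnat2 were not called.

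Because retinal genes moved with the contrast, the mean log2(FPKM + 1) of the 35 photoreceptor genes was added to the fit as a covariate, a choice made after seeing the data. It was 3.29, 4.77 and 2.34 in WT 0 h, 1.86, 2.46 and 2.57 in WT 24 h, 3.29, 2.65 and 3.04 in β8ITG-cKO 0 h and 4.62, 4.56 and 4.79 in β8ITG-cKO 24 h libraries, and its own interaction was 2.83. With it, 1 gene was called in place of 1433 (Snora73b, a small RNA, lower), 1912 genes had an unadjusted p of at most 0.05, and the median standard error went from 0.25 to 0.387. The covariate itself follows the interaction, so this fit cannot tell them apart and has less precision by construction. Of the 1433 genes, 1391 had the same sign. The photoreceptor median went from 2.96 to -0.06, which the covariate fixes by construction, being the mean of the same genes. The median of the AP-1, Egr and immediate early list went from 1.36 to 0.66 and the clock median from 1.21 to 0.59. In the annexin and galectin list described below the median went from -0.82 to -0.74. Ccl2 was at 4.26 in place of 4.83, Nr1d1 at 2.63 in place of 2.98 and Timp1 at -2.85 in place of -2.83. Others moved more, with Atf3 at 2.76 in place of 4.59 and Ccl7 at 1.48 in place of 3.21. Cxcl10 was at 1.03 in place of 2.64, Junb at 1.19 in place of 2.53 and Tnfaip3 at 0.99 in place of 2.43. With a mean per group in the fit, a shift rests on differences within groups. For the covariate these were widest among the WT 0 h libraries. The sizes of the shifts therefore do not sort genes by a part of retinal RNA, which was not tested.

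Of 28 glycolysis and hypoxia genes, 5 were called higher and none lower, with a median of 0.54, beside 6.83% higher over all genes. The count was 9 after quantile normalization and ran from 3 to 7 with 1 library left out, being 3 without WT 0 h replicate 1 or 2, WT 24 h replicate 1 or any β8ITG-cKO 0 h library. The 5 were Adm, Ndrg1, Bnip3, Ankrd37 and Hk1, which are targets of hypoxia-inducible factors or, for Hk1, the first enzyme of glycolysis. Hk1 had 63.7, 58.9 and 62.8 FPKM in β8ITG-cKO 24 h, 24.4, 33.3 and 26.4 FPKM in WT 24 h, 17.2, 28.4 and 13.6 FPKM in WT 0 h and 16.7, 13.8 and 15.8 FPKM in β8ITG-cKO 0 h libraries. It rose in β8ITG-cKO LCs alone, an interaction of 1.40 (adjusted p = 0.0166), which was 0.23 with the photoreceptor covariate. That fit cannot tell the covariate and the interaction apart. Adm, the vasodilator adrenomedullin, was listed at 0 in the 3 β8ITG-cKO 0 h libraries, with 3.28, 1.44 and 2.38 FPKM in WT 0 h. Bnip3, which marks mitochondria for removal, varied within a group, with 40.2, 22.7 and 12.3 FPKM in β8ITG-cKO 24 h libraries, and its adjusted p of 0.0401 rose to as much as 0.0855 with 1 library left out.

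Among genes with a lower interaction, several matrix and secreted genes were higher in β8ITG-cKO LCs at 0 h and near WT at 24 h, so that they rose less. Timp1, an inhibitor of matrix metalloproteinases on chromosome X, had 1.64, 2.55 and 2.58 FPKM in WT 0 h, 161.1, 132.5 and 100.7 FPKM in WT 24 h, 18.4, 12.7 and 17.4 FPKM in β8ITG-cKO 0 h and 105.1, 81.2 and 101.4 FPKM in β8ITG-cKO 24 h libraries. The 0 h groups did not overlap, and the rise was 5.33 in WT and 2.50 in β8ITG-cKO LCs, an interaction of -2.83 (standard error 0.28, adjusted p = 0.00144). Timp1 lies within Syn1 on the other strand, and Syn1, a synaptic vesicle gene, had an interaction of 2.03. The strand setting of the counting is unknown, so reads of such overlapping pairs may have been shared. Ecm1, a secreted glycoprotein that binds matrix proteins, had 14.6, 8.90 and 9.69 FPKM in β8ITG-cKO 0 h and 0.918, 1.14 and 1.44 FPKM in WT 0 h libraries, and it rose by 5.57 in WT and 3.56 in β8ITG-cKO LCs. The neuropeptide gene Gal and the receptor tyrosine kinase gene Axl had the same order of groups at 0 h, with interactions of -1.95 and -1.61.

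Other genes with a lower interaction were high in β8ITG-cKO LCs at 0 h and fell there, with no change called in WT LCs. Angptl7, a secreted protein abundant in the cornea and trabecular meshwork, had 22.1, 8.82 and 14.7 FPKM in β8ITG-cKO 0 h libraries and at most 5.22 FPKM elsewhere, an interaction of -3.10 (adjusted p = 0.00761). It lies within Mtor on the other strand, so that reads may have been shared here too, and Mtor itself had 57.3, 64.8 and 64.7 FPKM in β8ITG-cKO 0 h against 30.7, 29.5 and 27.8 FPKM in WT 0 h libraries. Aldh3a1, an aldehyde dehydrogenase abundant in corneal epithelium, had 910.98, 535.2 and 755.5 FPKM in β8ITG-cKO 0 h and 264.2, 207.5 and 247.9 FPKM in WT 0 h libraries, an interaction of -2.29. Of 8 corneal epithelium genes tested it was the 1 called (2.56% of all genes were called lower), and the list's median was -0.48. The summed level of its 12 genes, led by Clu, was 2539.6, 2326.7 and 2454.1 FPKM in β8ITG-cKO 0 h against 1857.2, 1813.9 and 1766.1 FPKM in WT 0 h libraries, and Aldh3a1 made up most of that gap. The median genotype difference of the 8 genes at 0 h was -0.11, with 1 called higher and 1 lower. The part of corneal cells in the result was not tested. Htra3, a secreted serine protease, and Thrsp, a regulator of fatty acid synthesis, completed this pattern with interactions of -1.45 and -1.48.

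Annexin and galectin genes and some immune genes also had lower interactions, several of them in the 24 h samples. Of 23 annexin, galectin and cornified envelope genes, 7 had a lower interaction (2.56% of all genes did) and none a higher one, with a median of -0.82. Without WT 24 h replicate 3 there were 11 lower calls, and without any other library 7 or 8. The 7 were S100a6, Lgals3, Anxa8, Anxa2, Tgm1, Anxa3 and Anxa4. S100a6, a calcium-binding protein, was higher in β8ITG-cKO LCs at 0 h by 1.30, with no call at 24 h, while Lgals3 differed at 24 h. Lgals3, which encodes the carbohydrate-binding protein galectin-3, was at 111.5, 147.6 and 130.99 FPKM in WT 24 h and 38.6, 33.3 and 26.1 FPKM in β8ITG-cKO 24 h libraries, the latter near the 0 h values of 34.1, 27.7 and 31.5 FPKM in WT and 23.7, 22.2 and 23.4 FPKM in β8ITG-cKO. The genotype difference was -1.97 at 24 h and -0.41 at 0 h. Ccl5, a T cell chemokine, rose in both genotypes but to 31.4, 72.02 and 57.4 FPKM in WT 24 h and 24.5, 20.8 and 7.73 FPKM in β8ITG-cKO 24 h libraries. Its interaction of -1.94 had an adjusted p of 0.0471, which reached 0.109 with 1 library left out. S100a9, a neutrophil protein, with all WT 0 h libraries listed at 0, reached 30.7, 19.3 and 24.2 FPKM in WT 24 h and 10.2, 5.31 and 15.8 FPKM in β8ITG-cKO 24 h libraries. It was 1 of 6 neutrophil genes tested and the only 1 called (interaction -1.57, adjusted p = 0.0416), and it lost the call in 10 of 12 omissions of 1 library, all but those of WT 24 h replicate 2 and β8ITG-cKO 24 h replicate 3, with an adjusted p of up to 0.0912. The summed level of the 15 neutrophil genes, 3 of which were at 0 in every library, was 70.7, 50.2 and 56.8 FPKM in WT 24 h and 26.9, 15.9 and 39.3 FPKM in β8ITG-cKO 24 h libraries. The part of neutrophils in the results at 24 h was not tested. Slfn2, Rsad2 and Slpi, which respond to immune signals, rose in both genotypes, more in WT LCs, and had interactions of -1.80, -1.33 and -1.11. Rsad2 lost the call in 5 and Slpi in 10 of 12 omissions of 1 library, with adjusted p up to 0.0658 and 0.084. Of 29 interferon-stimulated genes, however, Rsad2 was the only 1 lower and Irf1 (1.59) the only 1 higher, and the median was -0.14. Without WT 24 h replicate 1, 6 were lower.

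Several lens epithelial genes had lower interactions, most of them under 1 in size. Of 23 lens identity and lens epithelium genes, 6 were called lower (Cdh1, Aqp1, Sox1, Maf, Tfap2a and Wls) and 1 higher (Tfap2b), with a median of -0.49. Over all genes 2.56% were lower and 6.83% higher. Cdh1 encodes E-cadherin, which joins epithelial cells, and its locus spans 106603350 to 106670247 on chromosome 8. Its level was 58.7, 55.6 and 63.05 FPKM in WT 0 h, 75.2, 77.5 and 89.98 FPKM in WT 24 h, 98.3, 93.6 and 93.2 FPKM in β8ITG-cKO 0 h and 43.2, 46.5 and 37.7 FPKM in β8ITG-cKO 24 h libraries. No group overlapped another: the order was β8ITG-cKO 0 h, WT 24 h, WT 0 h and β8ITG-cKO 24 h. Cdh1 rose in WT and fell in β8ITG-cKO LCs, an interaction of -1.59 (standard error 0.16, adjusted p = 0.00144), and the highest adjusted p with any 1 library left out was 0.00658. Sox1 and Maf, transcription factors needed for lens fiber differentiation, fell in both genotypes but more in β8ITG-cKO LCs, with interactions of -0.84 and -0.81. The Wnt ligand genes Wnt7a and Wnt7b fell in β8ITG-cKO LCs, with interactions of -1.08 and -0.94. Tfap2b stood on the retinal side, with 2.28, 2.63 and 3.01 FPKM in β8ITG-cKO 24 h and 0.135, 0.174 and 0.269 FPKM in WT 24 h libraries, and it is also a member of the inner retina list. The 6 lower calls became 2 without β8ITG-cKO 0 h replicate 3, and 3 without WT 0 h replicate 1, β8ITG-cKO 0 h replicate 2 or β8ITG-cKO 24 h replicate 1 or after quantile normalization.

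Of the TGF-β pathway genes, 2 ligand genes had a lower interaction. Tgfb1, which encodes the ligand TGF-β1, had 13.8, 11.4 and 13.2 FPKM in WT 0 h, 45.4, 38.8 and 36.1 FPKM in WT 24 h, 16.8, 16.8 and 19.98 FPKM in β8ITG-cKO 0 h and 28.2, 31.1 and 29.5 FPKM in β8ITG-cKO 24 h libraries. It rose by 1.57 in WT and 0.70 in β8ITG-cKO LCs, an interaction of -0.87 (adjusted p = 0.0114). Tgfb2 was called too (-0.58, adjusted p = 0.037), but it lost the call in 8 of 12 omissions of 1 library (adjusted p up to 0.0968). It was also not called after rescaling to the same median, after quantile normalization or with a replicate block. Tgfb1 kept its call with any 1 library left out. Tgfb1 and Tgfb2 were 2 of 16 ligand, activation and receptor genes (2.56% of all genes were called lower), the list having a median of 0.20. None of 19 TGF-β target and feedback genes passed the limma-trend test (5 had an unadjusted p of at most 0.05), with a median of -0.06 and median changes of 1.35 in WT and 1.59 in β8ITG-cKO LCs. Tgfbi, whose product is named for its induction by TGF-β, came nearest with -1.38 (adjusted p = 0.0657), followed by the growth factor gene Ctgf with -0.76.

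The intervals show what these libraries could tell. Acta2, the smooth muscle actin of myofibroblasts, had 525.7, 968.4 and 200.7 FPKM in WT 24 h and 207.2, 378.6 and 206.6 FPKM in β8ITG-cKO 24 h libraries, overlapping ranges, and the 95% interval of its interaction was -1.99 to 0.82. For the matrix genes Fn1 and Tnc it was -2.28 to -0.04 and -1.469 to 0.996. Acta2, Fn1 and Tnc were not called by limma-trend (adjusted p = 0.63, 0.19 and 0.84). Grem1, a secreted BMP antagonist, had 102.8, 99.9 and 132.4 FPKM in WT 24 h and 63.3, 23.4 and 32.5 FPKM in β8ITG-cKO 24 h libraries. These did not overlap, but both genotypes started near 0 and rose steeply, and the interaction of -1.07 (95% interval -2.11 to -0.02, adjusted p = 0.196) was not called. Its sign depended on the pseudocount, with 0.23 (adjusted p = 0.904) at a pseudocount of 0.1 and -1.33 (adjusted p = 0.0432) at 4, the 0 h values being 1.40, 0.211 and 0.112 FPKM in WT and 0, 0 and 0.119 FPKM in β8ITG-cKO libraries. Itgav, the partner chain of β8, rose in both genotypes and had an interaction of -0.38 (95% interval -0.79 to 0.03, adjusted p = 0.239). None of 11 integrin genes, 14 BMP pathway genes, 31 cell cycle genes, 16 crystallin genes or 17 fiber cell genes was called by limma-trend, while at an unadjusted p of at most 0.05 there were 4, 2, 1, 1 and 2. The medians of these lists ran from -0.44 to 0.29, those of crystallin and fiber genes going from -0.44 to 0.22 and from -0.21 to 0.08 after quantile normalization. A missed threshold does not show that the genotypes acted alike, since the median standard error of an interaction was 0.25. Of 26 contractile and focal adhesion genes, 2 had a lower interaction (5 after rescaling to the same median), the tropomyosin gene Tpm2 (-1.67, adjusted p = 0.0497, up to 0.108 with 1 library left out) and the actin crosslinker gene Actn1 (-0.89, adjusted p = 0.0264, up to 0.0673). Over all genes 2.56% were called lower, and rescaling gave 649 lower calls in place of 390. Without WT 24 h replicate 3 the list had 12 lower calls, and without any 1 of the other libraries at most 1. Omission of WT 24 h replicate 3 also gave 3 lower calls among integrin genes, 3 among cell cycle genes and 2 among TGF-β target genes. Over all genes it gave 772 lower calls in place of 390.

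The counts of the remaining lists stand beside 6.83% higher and 2.56% lower calls over all genes. Matrix and matricellular genes had 2 higher and 2 lower of 31, collagens and crosslinking enzymes 1 and 2 of 27, matrix proteases and inhibitors 2 and 1 of 20, and YAP/TAZ targets 3 and 1 of 20. Wnt and Notch genes had 1 higher and 2 lower of 28, NRF2 and antioxidant genes 1 and 2 of 27, and p53 pathway genes 2 and 0 of 19. Heat shock and unfolded protein genes had 3 higher of 29, EMT factors, cadherins and intermediate filaments 1 and 1 of 15, cholesterol synthesis 0 and 1 of 25, and ribosome biogenesis 0 and 1 of 31. Their medians lay between -0.38 and 0.24. No call was made by limma-trend among 13 mitochondrially encoded genes (0 at an unadjusted p of at most 0.05), whose median was 0.10. Of these lists, ribosome biogenesis had 7 lower calls without WT 24 h replicate 3, and in the others the omission of 1 library moved a count by at most 2.

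**Figure D5:**
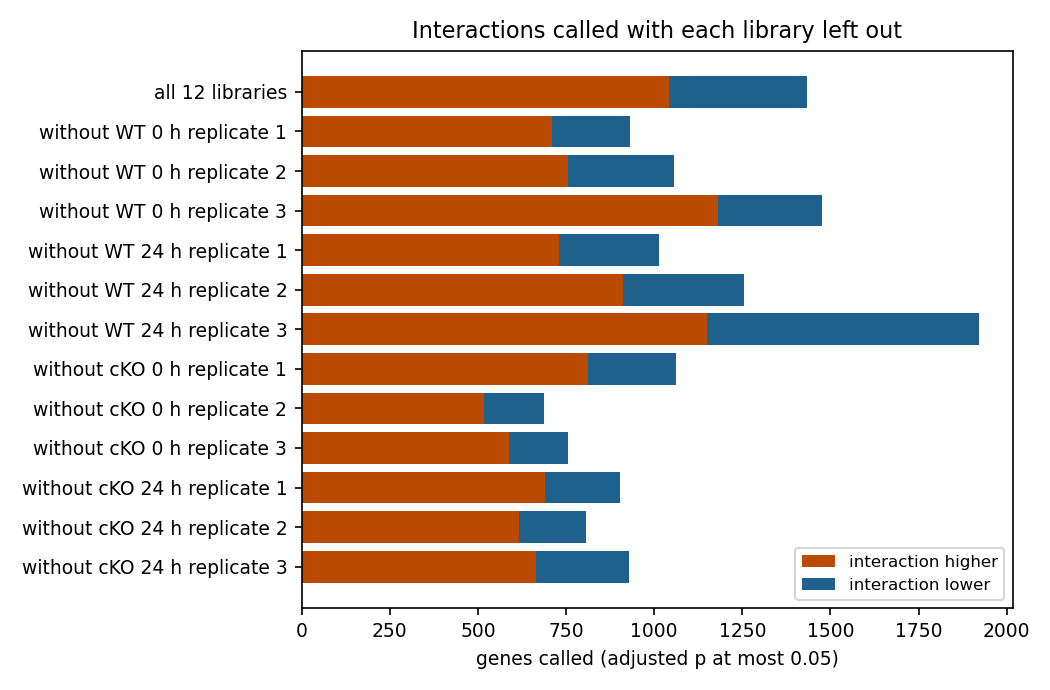
Number of genes called (x axis) with all 12 libraries and with each library left out in turn (y axis), split into higher (orange) and lower (blue) interactions at an adjusted p of at most 0.05. The total ran from 688 to 1921, and higher calls outnumbered lower calls in every case.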

How the data were processed

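RNA of 12 libraries (4 groups of 3, 5 capsules each) was measured by RNA-seq from a stranded low-input total RNA kit. The submitters' processing notes name FastQC, cutadapt 1.12, TopHat2 2.1.0 and Cuffdiff 2.2.1 with mm10 and GRCm38.p5, and the authors deposited the values as FPKM per gene and library in 4 tables. The 12 FPKM columns were joined (a library had the same values wherever it was listed), and 16 pooled columns, the authors' fold changes and their p-values were not used. Positions and gene symbols are those of the files, and Cuffdiff loci can be wider than a gene. The strand setting of the counting is not given in the sources used here.

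FPKM are not counts, so limma 3.58.1 in R 4.3.3 (limma-trend, eBayes) was fitted once on log2(FPKM + 1) over all 12 libraries and 15262 genes, with 1 mean per group and no block, and the interaction was a contrast with Benjamini-Hochberg adjustment and a threshold of 0.05. Fold changes on this scale understate changes of low genes. With 3 libraries a group, an exact permutation test of a single gene was not used. The script was tested on simulated data.

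The comparison and the 43 gene lists (31 pathway and 12 cell type marker lists) were chosen with earlier results of these data known. Of their genes, 14 were matched by another symbol. Named genes were Itgb8, Itgav and Grem1, the 10 largest called interactions in each direction with a group mean of at least 10 FPKM (without predicted genes and small RNAs), the 5 largest of each pattern of change, and up to 4 called members of each list with at least 2 FPKM. Acta2, Clock, Dkk3, Fn1, Fos, Mtor, Syn1, Tnc and members listed beside a count lie outside this rule and were chosen with their values in view. Some genes that the rule names are not reported here. Alternatives were pseudocounts of 0.1 and 4, other filters, rescaling, quantile normalization, other eBayes settings, array weights, a minimum size of 1, exact 0 set missing, a replicate block, each library left out and, chosen after seeing the data, a photoreceptor covariate. Promoters are RefSeq sequences without chromosome 18, searched over 250 bases. Python 3.11.15, pandas 2.3.3, numpy 2.4.6 and matplotlib 3.10.9 were used.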

Additional observations from a re-analysis of the deposited data

Results flagged for a closer look

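The changes of the 2 genotypes over 24 h differed by the limma-trend interaction test for 1433 genes, and the genes with the largest interactions among those with a group mean of at least 10 FPKM, predicted genes and small RNAs left out, are listed here. On the log2(FPKM + 1) scale the 10 highest were Ccl2 (4.83), Atf3 (4.59), Chga (4.25), Pcp2 (4.16), Rbp3 (4.13), Chgb (4.10), Sncb (4.02), Snap25 (3.97), Syt1 (3.84) and Sag (3.81). In Ccl2 and Atf3 the genotypes differed most at 0 h. In the other 8, which are genes of neurons, neuroendocrine cells or photoreceptors, the 3 β8ITG-cKO 24 h libraries were the high ones together with WT 0 h replicate 2. Among the lowest were Angptl7 (-3.10), Timp1 (-2.83), Aldh3a1 (-2.29), Ecm1 (-2.01), Gal (-1.95), Ccl5 (-1.94), Evpl (-1.87) and Slfn2 (-1.80). Evpl encodes envoplakin, a protein of the cornified envelope. No single library was tested as an outlier.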

How the results depend on the processing

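The interaction was called for 1433 genes, 1043 higher and 390 lower in β8ITG-cKO LCs. The total was 930 with a filter at a mean of 2 FPKM (592 higher), 2571 with array weights (1587 higher, 984 lower) and 947 with an absolute interaction of at least 1 (152 lower). Lower calls were 649 after rescaling to the same median. With the photoreceptor level as a covariate, chosen after seeing the data, the total was 1, with 0 higher and 1 lower. Leaving out 1 library gave totals from 688 to 1921, higher calls from 516 to 1181 and lower calls from 166 to 772, and the cause was not tested. Pseudocounts of 0.1 and 4, no filter, quantile normalization, eBayes without trend, robust eBayes and exact 0 set missing kept the total within 1.5 times, from 1214 to 1432 genes. No gene called in both fits changed sign under any of these settings, but fits on the same or nearly the same libraries leave little room for that.

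A fit with a replicate block called 1024 genes, 771 higher and 253 lower, and 16 of the 117 genes named by rule lost their call. The labels give only numbers, and libraries with the same number did not deviate together: in 18 such pairs the correlation of deviations from the group means ran from -0.218 to 0.082 (median -0.011). In 36 pairs with different numbers it ran from -0.185 to 0.153.

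Of the 117 genes, those called with all libraries kept their sign in every setting. Signs turned in 6 genes that were not called. Grem1 was at 0.23 with a pseudocount of 0.1, ND2 at 0.34 with quantile normalization and Pmp22 at -0.11 with array weights, and with the covariate Xist was at 1.05, Ddx3y at -1.92 and ND3 at -0.045. With 1 library left out, Xist ran from -2.19 to 0.76, Pmp22 from -0.074 to 0.20 and Ddx3y from -0.10 to 1.88. Of 96 genes called, 35 lost the call in at least 1 omission of a library, among them Csf2, Thrsp, Hspa1a, Nfkbie, Relb, Btc, Evpl, Sncb and Sox1. With the covariate all 96 lost it, as did 16 with quantile normalization, 29 without a filter and between 7 and 33 with 1 library left out. Read depth per library was not used here, so no counting interval can be given, and 3 libraries a group leave a median standard error of 0.25 per interaction. Pools of 5 capsules, strain background and exact 0 values of abundant genes limit single-gene values.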

Other observations

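Over all genes tested, 6.83% had a higher and 2.56% a lower interaction, and markers of other ocular tissues are given beside these shares. Of 14 pigment epithelium, iris and ciliary body genes tested, 2 were called higher, with a median of 0.52. They were the thyroxine carrier gene Ttr (1.98, adjusted p = 0.0378 by limma-trend) and the bicarbonate transporter gene Slc4a5 (2.09, adjusted p = 0.013). Ttr had 13.4, 31.8 and 12.9 FPKM in WT 0 h, 0.67, 0.575 and 0.294 FPKM in WT 24 h, 6.46, 10.4 and 12.1 FPKM in β8ITG-cKO 0 h and 1.14, 4.34 and 2.11 FPKM in β8ITG-cKO 24 h libraries, so it fell in both genotypes. It lost the interaction call in 9 of 12 omissions of 1 library (adjusted p up to 0.0838). Of 7 corneal stroma and endothelium genes, the collagen gene Col8a2 (0.95, not called in 9 of 12 omissions) and the proteoglycan gene Dcn (1.86) were higher and Angptl7 was lower. Dcn had 2.78, 1.91 and 2.50 FPKM in WT 0 h and 0, 0.174 and 0.106 FPKM in β8ITG-cKO 0 h libraries, and was at or under 0.899 FPKM in all libraries at 24 h. Of 4 vascular genes, Kdr, the VEGF receptor of endothelial cells, was higher (2.19, adjusted p = 0.0261, not called in 6 of 12 omissions), with 2.76, 3.18 and 5.21 FPKM in β8ITG-cKO 24 h and 0.267, 0.348 and 1.21 FPKM in WT 24 h libraries.

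None of 16 macrophage and monocyte genes was called by limma-trend, with 4 at an unadjusted p of at most 0.05 and a median of 0.19. The complement gene C1qa had an interaction of 1.40 (adjusted p = 0.0828). None of 2 muscle, 3 Schwann cell and melanocyte and 5 sex-linked genes was called, with 1, 1 and 0 at that unadjusted p. Xist ranged from 0.035 to 60.6 FPKM over the libraries, and Ddx3y from 0 to 11.3 FPKM. Ddx3y varied between libraries of each group. Xist varied within WT 0 h, WT 24 h and β8ITG-cKO 24 h, but was even in β8ITG-cKO 0 h libraries, at 45.2, 44.2 and 45.9 FPKM. Of 14 MHC class I genes tested, H2-D1 was the 1 called (-0.96, adjusted p = 0.0441), where 2.56% of all genes were called lower. H2-D1 lost the call in 10 of 12 omissions (adjusted p up to 0.102). It had 9.77, 10.7 and 11.1 FPKM in WT 0 h, 40.9, 52.3 and 51.9 FPKM in WT 24 h, 36.6, 44.04 and 43.5 FPKM in β8ITG-cKO 0 h and 80.7, 73.8 and 128.9 FPKM in β8ITG-cKO 24 h libraries, and the β8ITG-cKO libraries were the higher at both times.

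Some small RNAs and predicted genes, which the naming rule leaves out, also had large interactions. The tRNA gene n-TSgct4 on chromosome 13 had 10205.5, 8285.5 and 11820.7 FPKM in β8ITG-cKO 0 h libraries and 9282.3 FPKM in WT 24 h replicate 1, and was listed at 0 in the other 8. The predicted genes Gm42390, Gm42387 and LOC101055630, neighbours on chromosome 7, had interactions of 4.39, 4.003 and 3.01. Over the table, 73 values in 27 genes were listed at 0 although the median of the other libraries was at least 10 FPKM, among them Cryaa, the αA-crystallin gene, in WT 0 h replicate 2.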
